A study of Mus musculus with 10 samples.

Results

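Hepatocyte-like cells, made in culture from mouse embryonic stem cells, were compared with adult hepatocytes to find which functions of mature liver cells they lacked and which other programmes they expressed in excess. The comparison used 3 arrays of hepatocyte-like cells and 3 arrays of adult hepatocytes, that is 6 of the 10 arrays of the series, and all 22180 genes represented by a probe set (a transcript cluster) that carries exactly 1 gene symbol. The other 4 arrays held the undifferentiated embryonic stem cells, whose levels are given as a reference point and which shared in the estimate of the spread. The series as a whole concerns recognition and killing by natural killer cells, through their receptor NKG2D, of liver-lineage cells derived from stem cells. RNA was measured on Affymetrix arrays, which report the brightness of each probe set.

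All 3 groups carry the same strain label, the transgene Tg(CAG-luc, GFP)L2G85Chco/FathJ on a C.FVB background, in which the CAG promoter drives luciferase and green fluorescent protein, so the reporter is common to the cells compared. The adult hepatocytes came from liver, and the hepatocyte-like cells are labelled as differentiated embryonic stem cells. Neither group has a label for sex, age, the differentiation protocol or the days of differentiation, and the same passage label is given to the adult hepatocytes as to the cultured cells. The arrays of a group are called biological replicates with no statement of separate animals or cultures, so p-values measure the spread between these arrays, and 3 arrays a group limit the precision of each value. The groups also differ in source, liver against cultured stem cells, and effects of culture cannot be told apart from those of cell type.

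The adult hepatocyte secretes most plasma proteins, turns ammonia into urea, makes and stores glucose, builds bile acids from cholesterol and removes drugs and toxins through cytochrome P450 and conjugating enzymes. These genes are switched on by a network of transcription factors, among them HNF4A, the HNF1 proteins, C/EBP proteins and FOXA proteins, that keep one another's genes active, and many of the target genes start only around birth. The fetal hepatoblast instead divides, makes alpha-fetoprotein and expresses imprinted growth genes, and cells grown on plastic often build actin stress fibres and deposit matrix. In bulk RNA such as this, fewer cells of a type and less RNA per cell cannot be told apart.

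Levels are given on the log2 scale, on which a difference of 1 is a doubling. A difference is always hepatocyte-like minus adult, with the standard error of the fit. The fit gives each gene 1 spread shared by all groups. Where the hepatocyte-like arrays varied more than the others, the error and p-value understate their spread. The genes Alb, Serpina1c and Hamp below are such cases. A gene was called when limma's moderated test gave a Benjamini-Hochberg adjusted p under 0.05 over all genes and the difference was at least 1. The table holds no detection calls, so the background level of a group was set at the 95th percentile of its means over 1105 olfactory receptor genes, which liver and stem cells are not known to use. This level was 5.17 in adult hepatocytes and 4.92 in the hepatocyte-like group, with 4.89 for the embryonic stem cells, and a fold against a group at or near it is uncertain in size. Levels of different genes come from different probes and are not compared with each other.

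Pearson correlations over all 41345 transcript clusters were 0.960 to 0.978 among the adult arrays, 0.963 to 0.976 among the hepatocyte-like arrays and 0.833 to 0.849 between the groups. In the genes that adult hepatocytes express most, replicate 3 of the hepatocyte-like cells differed from the other 2. Of the 60 lower genes with an adult level of at least 12, 43 had their highest hepatocyte-like value in replicate 3, and their median level there was 6.48, against 5.20 in replicate 1 and 5.39 in replicate 2. The medians in the adult arrays were 12.36 to 12.39, and the embryonic stem cell median was 4.92. Replicate 3 also had the lowest mean level of the collagen genes and of the stellate cell genes and the highest of the pluripotency and placental genes, as given below. Without it the count of higher or lower calls changed in 31 of the 58 gene lists compared, by at most 3 genes, and a change of at least 2 genes is given beside its list.

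The labelled cell types were checked against defining markers. All 6 hepatocyte markers, namely albumin (Alb), transthyretin (Ttr), apolipoprotein A-I (Apoa1), Cyp2e1, carbamoyl phosphate synthase (Cps1) and Hnf4a, were above background in every adult array and called lower in hepatocyte-like cells. Albumin, the main plasma protein, stood at 13.42, 13.48 and 13.42 in adult replicates 1 to 3 and at 4.85, 5.14 and 10.80 in hepatocyte-like replicates 1 to 3. Replicates 1 and 2 lay near background and replicate 3 lay far above them, but still below every adult array. The difference was -6.51 ± 1.12 (adjusted p = 0.000486, limma), and without replicate 3 it was -8.44 (adjusted p = 2.29e-10). The first error and p-value rest on the spread shared by all groups and understate that of the hepatocyte-like arrays here. Transthyretin, which carries thyroid hormone and retinol and is made early in liver development, kept 9.04, 10.44 and 8.77 against 13.18, 13.04 and 13.05 in adults, with all hepatocyte-like arrays below all adult arrays but above the embryonic stem cell mean of 6.31. Alpha-fetoprotein (Afp), the fetal plasma protein, was 9.13, 9.30 and 6.69 in hepatocyte-like cells and 4.90, 4.77 and 4.99 in adults, a difference of 3.49 ± 0.51 (adjusted p = 0.000125), and was lowest in replicate 3. By these markers the cells labelled hepatocyte-like had clear Afp and Ttr signal but albumin near background on 2 of 3 arrays.

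Of 22180 genes, 3083 were called higher in hepatocyte-like cells (13.9%) and 2023 were called lower (9.12%). The lower genes had the larger differences, with a median of -2.13 against 1.62 for the higher genes, and 297 lower genes but 47 higher genes differed by at least 5. The median difference over all genes was -0.04. The split depended on the scaling of the arrays: 60.4% of the calls were higher in the values as deposited, but 49% (2322 higher and 2413 lower) after cyclic loess normalization. Abundant adult transcripts were often lower. Of 884 genes with an adult level of at least 10, 555 were lower in hepatocyte-like cells and 40 were higher, and 132 of the lower ones had fallen to background. In the other direction, 664 genes reached 10 in hepatocyte-like cells, of which 332 were higher than in adults and 15 were lower. Of the 332, 21 were at background in adults. Each set was picked by a high level in the group named, which by itself favours a lower level in the other group. The direction of these counts therefore follows in part from the choice of genes. In all, 573 of the lower genes were at background in hepatocyte-like cells and 815 of the higher genes were at background in adults.

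**Figure D1:**
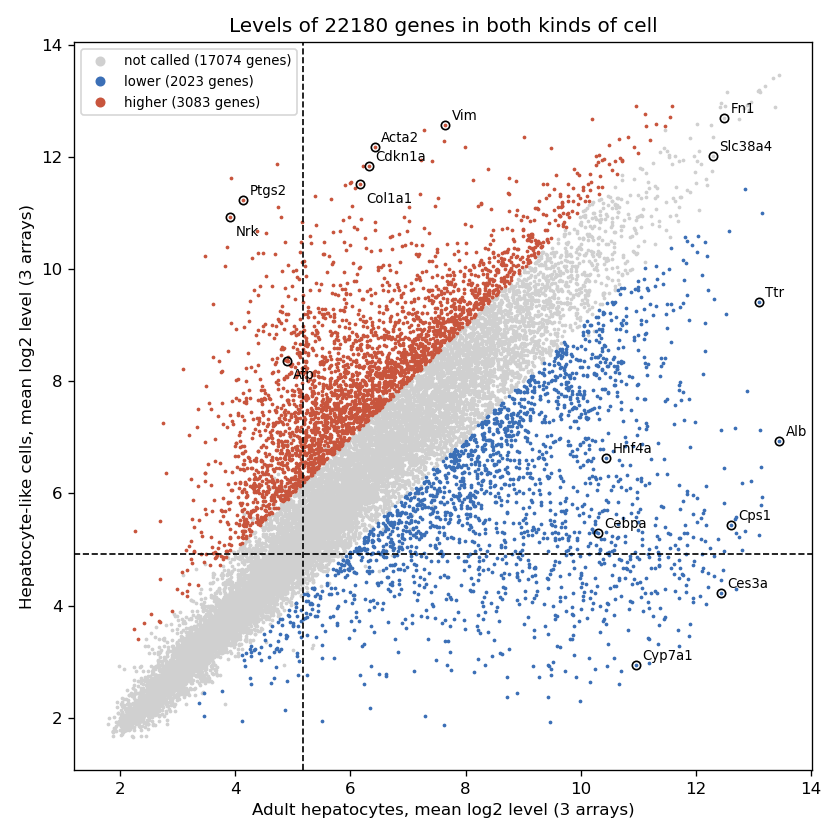
Mean level in hepatocyte-like cells against mean level in adult hepatocytes (log2, 3 arrays each) for the 22180 genes, with called genes in colour, 16 named genes circled and the background level of each group as a dashed line. Genes such as Cyp7a1 and Ces3a lie at the lower right, abundant in adults and at background in hepatocyte-like cells, while Nrk and Ptgs2 lie at the upper left and Fn1 and Slc38a4 lie near equal levels.

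The lists of genes below were read against these shares: by direction alone, 13.9% of all genes were called higher and 9.12% lower. The lists share some genes, and together they hold 1484 different measured genes. Members were chosen with earlier results of these data known, so the counts of calls may follow in part from that choice.

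**Figure D2:**
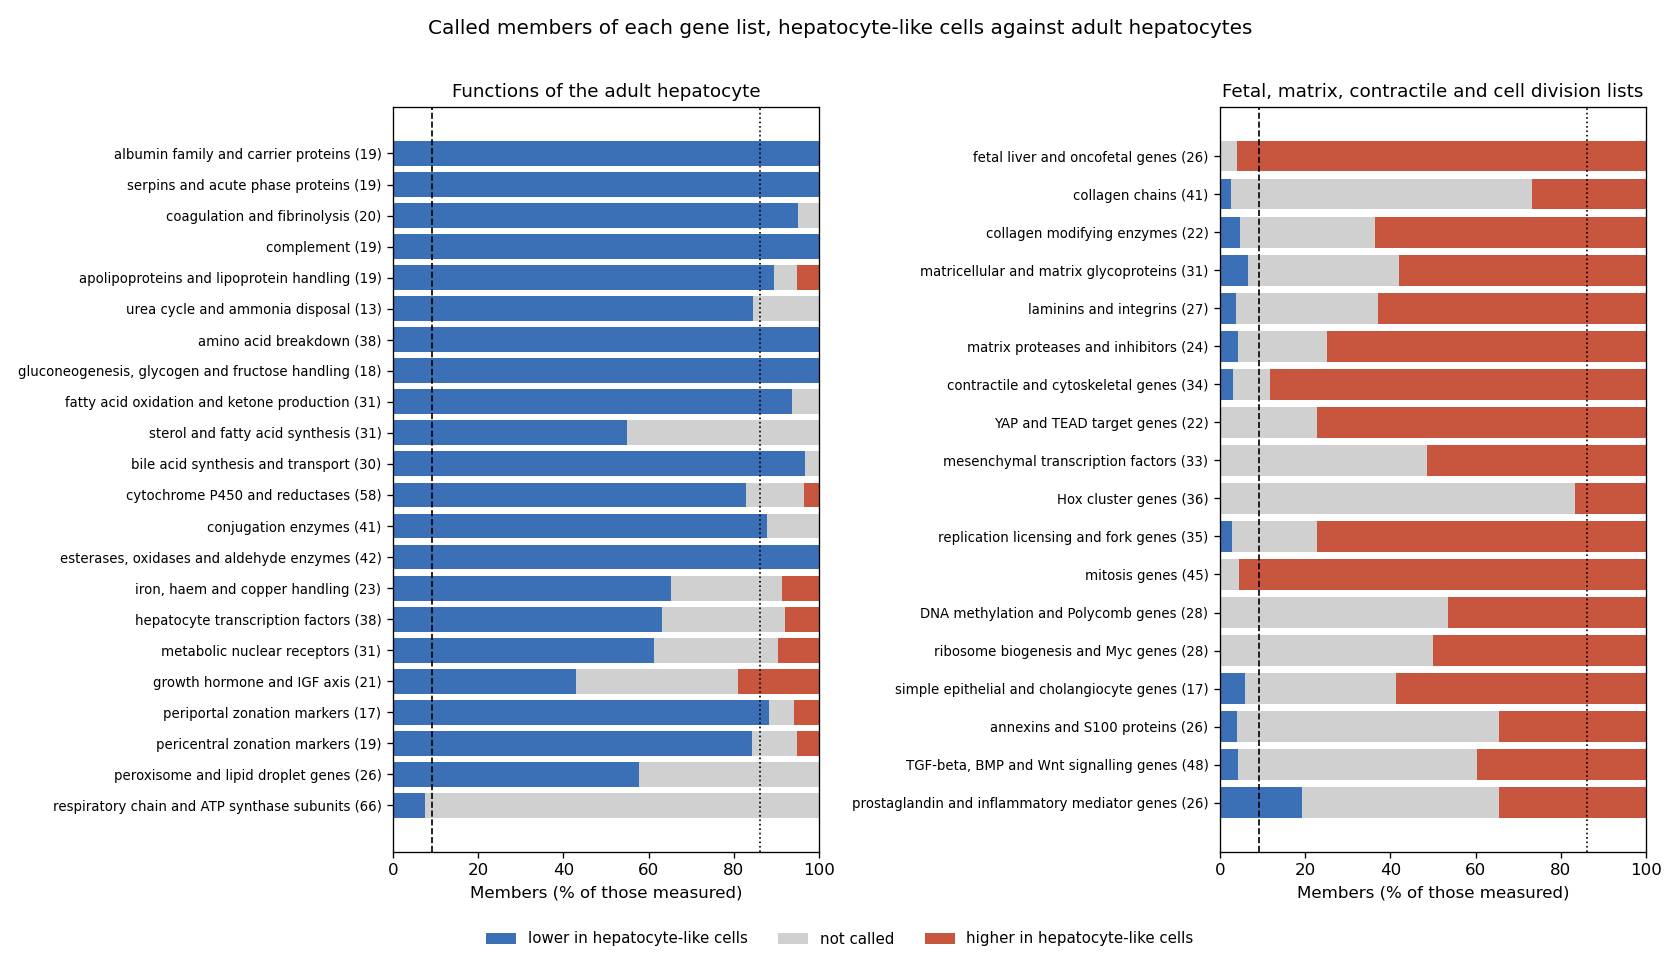
Percent of the measured members of each gene list called lower (left, blue) or higher (right, red) in hepatocyte-like cells, with the number of measured members in parentheses. The dashed line marks the 9.12% of all genes called lower and the dotted line, measured from the right edge, the 13.9% called higher; the secreted protein lists fill with lower calls and the mitosis and contractile lists with higher calls, while the respiratory chain list is mostly uncalled.

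Secreted plasma proteins were lower almost without exception. All 19 measured members of the albumin family and carrier proteins were lower, with a median difference of -6.50, as were all 19 serpins and acute phase proteins (median -5.64) and all 19 complement genes (median -5.23). Of 20 coagulation genes, 19 were lower (median -6.18). Background was reached by 7 of the carriers, 9 of the serpins and acute phase proteins, 8 of the coagulation genes and 13 of the complement genes, and without hepatocyte-like replicate 3 by 10, 12, 8 and 13. The mean level of the carrier list was 11.67, 11.56 and 11.51 in the adult arrays and 5.02, 5.16 and 5.83 in the hepatocyte-like arrays, so the groups did not overlap and replicate 3 was the highest of the hepatocyte-like arrays. The embryonic stem cell arrays were at 4.92, 4.93, 4.90 and 4.96.

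Within the carriers, histidine-rich glycoprotein (Hrg), which regulates clotting, was 11.76, 12.08 and 11.98 in adults and 3.69, 3.55 and 4.96 in hepatocyte-like cells, a difference of -7.87 ± 0.30 (adjusted p = 3.84e-10). Every hepatocyte-like array lay more than 6 units below the adults, and replicate 3 was the highest of them. Ambp, the precursor of alpha-1-microglobulin and bikunin, was 12.32 ± 0.01 (SD, n = 3) against 4.53 ± 0.35 (SD, n = 3) and differed by -7.79 ± 0.19. Fetuin-A (Ahsg), an inhibitor of mineral deposition, fell by 7.22 ± 0.56, and its hepatocyte-like values were 4.87, 5.21 and 7.71, again highest in replicate 3 and with an embryonic stem cell mean of 7.18. Among the protease inhibitors, the alpha-macroglobulin Pzp fell by 7.83 ± 0.52 and the heparin cofactor Serpind1 by 7.51 ± 0.21. Serpina1c, one of the alpha-1-antitrypsin genes, which are close copies that probes may not separate, was 3.46, 4.12 and 8.08 in hepatocyte-like cells against 12.85, 12.77 and 12.61 in adults. Its difference was -7.52 ± 0.89, and the large error came from replicate 3.

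Plasminogen (Plg), the precursor of the enzyme that dissolves clots, was 12.38, 12.31 and 12.28 in adults and 4.49, 4.56 and 5.63 in hepatocyte-like cells, with no overlap. Factor IX (F9) fell by 7.23 ± 0.24, the fibrinogen alpha chain (Fga) by 7.23 ± 0.40 and factor V (F5) by 7.04 ± 0.21. Protein S (Pros1), an anticoagulant cofactor that many tissues besides liver make, was the member that was not called. Its levels were 8.77, 8.57 and 8.35 in adults and 8.69, 8.97 and 9.25 in hepatocyte-like cells, overlapping, with a difference of 0.41 (95% interval -0.04 to 0.85). In the complement list, C4bp, which restrains complement activation, was 11.22 ± 0.07 in adults and 4.22 ± 0.21 in hepatocyte-like cells (SD, n = 3 each) and C9, a component of the membrane pore, fell by 6.41 ± 0.24.

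Promoters of plasma protein genes are shown because the genes moved together and because several hold the letters GTTAAT, the core of the HNF1 binding sequence. The sequences are RefSeq promoters of build GRCm38.p6, from 250 bases before to 50 bases after the start of the gene, read 5′ to 3′ on the gene's strand, and capitals mark the motif found on either strand. The first is from Itih1, a hyaluronan-binding plasma protein, at chr14:30943240-30943539 on the minus strand with the motif at bases -27 to -22 from the start, and the second is from Alb at chr5:90460620-90460919 on the plus strand with the motif at -32 to -27.
Itih1: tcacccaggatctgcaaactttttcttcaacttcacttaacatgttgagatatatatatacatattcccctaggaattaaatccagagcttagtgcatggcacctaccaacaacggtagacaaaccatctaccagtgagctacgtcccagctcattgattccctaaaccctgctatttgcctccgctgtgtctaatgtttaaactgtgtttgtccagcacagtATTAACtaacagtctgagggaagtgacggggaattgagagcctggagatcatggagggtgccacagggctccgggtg
Alb: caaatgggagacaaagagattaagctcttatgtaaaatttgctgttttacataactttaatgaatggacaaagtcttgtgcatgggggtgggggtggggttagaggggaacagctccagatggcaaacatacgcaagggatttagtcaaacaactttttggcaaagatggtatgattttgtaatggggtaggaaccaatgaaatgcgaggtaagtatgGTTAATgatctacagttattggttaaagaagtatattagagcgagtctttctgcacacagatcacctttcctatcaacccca

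Of 14336 tested genes with exactly 1 promoter in the table, 6.57% held GTTAAT on either strand, against 9.44% of the lower genes, 3.31% of the higher genes, 22.2% (44 of 198) of the genes lower by at least 5 and 16.7% (59 of 354) of the lower genes at background. In the lists it was found in 8 of 16 promoters of serpins and acute phase proteins, 6 of 17 of coagulation genes and 3 of 13 of carriers. The longer HNF1 sequence, GTTAAT facing its reverse complement across 1 base, was in 0 of all 14336 promoters. It therefore allowed no comparison between groups of genes. Base composition also differed: the median A+T content was 44% over all promoters, 52.3% for the genes lower by at least 5 and 37.3% for the higher genes. For all lower genes it was 42.7%, below that of all promoters, although their GTTAAT share was above. The part of base composition in the shares was not tested. A match describes letters in this window and does not show that a factor binds there. The HNF1 genes themselves were not analysed here.

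Lipoprotein genes were mostly lower, 17 of 19, with a median difference of -4.62. Apolipoprotein A-I (Apoa1), the main protein of high-density lipoprotein, was 11.68, 11.66 and 11.48 in adults and 6.95, 7.97 and 6.80 in hepatocyte-like cells, a difference of -4.36 ± 0.29 (adjusted p = 7.34e-08). All hepatocyte-like values lay above the embryonic stem cell mean of 5.54 and below every adult value. Apolipoprotein A-II (Apoa2) fell by 6.65 ± 0.33 and Apoa5, an activator of triglyceride breakdown, by 5.97 ± 0.14. The phospholipid transfer protein Pltp was the only member called higher, at 1.06 ± 0.33, a call lost under several other settings and without hepatocyte-like replicate 3 (1.01, adjusted p = 0.0651). The lipoprotein receptor Lrp1 was not called, at 10.67 in adults and 9.74 in hepatocyte-like cells.

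**Figure D3:**
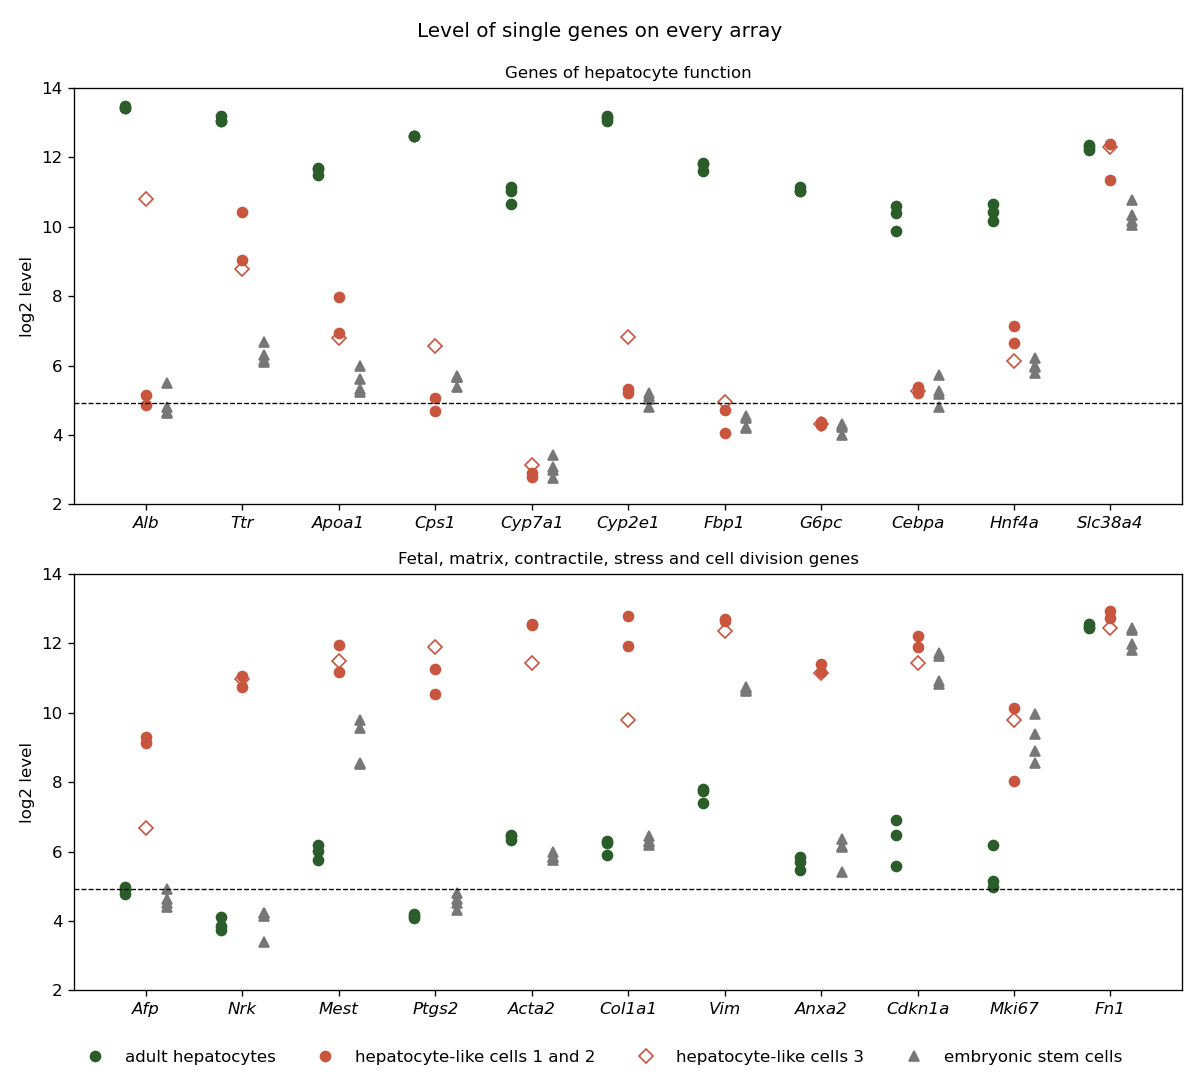
Level (log2) of 22 genes on each array, mature liver genes in one panel and genes of the excess programmes in the other, with adult hepatocytes, hepatocyte-like cells (open diamonds for replicate 3) and embryonic stem cells (triangles) and the hepatocyte-like background level of 4.92 dashed. Alb, Cps1 and Fbp1 separate the groups with replicate 3 above replicates 1 and 2 for Alb and Cps1, while Slc38a4 and Fn1 overlap between the groups.

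Nitrogen and amino acid metabolism was lower almost throughout. Of 13 genes of the urea cycle and ammonia disposal 11 were lower (median -3.66), and all 38 amino acid breakdown genes were lower (median -5.20), 17 of them at background. Carbamoyl phosphate synthase (Cps1), the first step of the urea cycle, was 12.62, 12.61 and 12.61 in adults and 4.70, 5.06 and 6.56 in hepatocyte-like cells, with a difference of -7.17 ± 0.36 (adjusted p = 4.47e-09). The adult arrays were nearly identical, and replicate 3 was the highest hepatocyte-like array. Ornithine transcarbamylase (Otc), the next enzyme, fell by 7.42 ± 0.26 and arginase (Arg1), which releases urea, by 6.50 ± 0.19. The mitochondrial ornithine carrier Slc25a15 fell by 4.44 ± 0.18 and kept a level of 6.90, below the embryonic stem cell mean of 8.23.

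2 members of the ammonia list were not called. The amino acid transporter Slc38a4, an imprinted gene, was 12.20, 12.31 and 12.37 in adults and 12.39, 11.35 and 12.31 in hepatocyte-like cells, so replicate 2 was lower and the other arrays overlapped. Its difference was -0.28 (95% interval -0.86 to 0.30). Argininosuccinate synthase (Ass1) was 7.04, 6.06 and 7.04 in adults and 6.68, 7.02 and 6.74 in hepatocyte-like cells, a difference of 0.10 (95% interval -0.44 to 0.64), on a probe set that was dim in adults too, although this enzyme is part of the hepatic urea cycle. Among the amino acid enzymes, tryptophan dioxygenase (Tdo2), which opens the tryptophan ring, was 11.47 ± 0.13 in adults and 3.79 ± 0.23 in hepatocyte-like cells (SD, n = 3 each). Homogentisate dioxygenase (Hgd), of tyrosine breakdown, was 3.67, 3.29 and 4.50 in hepatocyte-like cells against 11.35, 11.09 and 11.33 in adults, highest in replicate 3 but at background on average. Mat1a, the adult form of the enzyme that makes S-adenosylmethionine, fell by 7.41 ± 0.29.

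All 18 genes of gluconeogenesis, glycogen and fructose handling were lower, with a median difference of -4.90, and 6 were at background. Fructose bisphosphatase (Fbp1) was 11.84, 11.61 and 11.80 in adults and 4.05, 4.72 and 4.94 in hepatocyte-like cells, and glucose-6-phosphatase (G6pc), which frees glucose for export, was 11.16, 11.04 and 11.03 and 4.37, 4.28 and 4.32. In neither gene did a hepatocyte-like array come near an adult one. The differences were -7.18 ± 0.22 and -6.75 ± 0.15. Phosphoenolpyruvate carboxykinase (Pck1) fell by 6.68 ± 0.21 and the liver glucose transporter Slc2a2 by 6.55 ± 0.19.

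Lipid metabolism was less uniform. Of 31 genes of fatty acid oxidation and ketone production 29 were lower, with a median of -2.55, and 7 were at background. The fatty acid binding protein Fabp1 was 12.04, 12.09 and 12.07 in adults and 3.65, 3.36 and 5.52 in hepatocyte-like cells, a fall of 7.89 ± 0.42, and the transporters Slc27a2 and Slc27a5 fell by 7.22 ± 0.19 and 6.58 ± 0.16. The thioesterases Acot1 (-0.84) and Acot4 (-0.80) were the members not called. In sterol and fatty acid synthesis, 17 of 31 genes were lower (27 after cyclic loess) and none of these was at background, with a median of -1.29. Elovl2, which elongates polyunsaturated fatty acids, fell by 6.10 ± 0.17 and Dgat2, which completes triglycerides, by 3.98 ± 0.33. The sterol enzymes Hmgcs1 and Fdft1 were not called, at 11.86, 11.38 and 11.37 against 11.36, 10.53 and 10.96 and at 11.08, 10.86 and 10.86 against 10.81, 10.53 and 10.76. Of 26 peroxisome and lipid droplet genes 15 were lower (median -1.54, 17 without hepatocyte-like replicate 3), including the peroxisomal transporter Abcd2, which fell by 5.52 ± 0.40, while the lipid droplet coat Plin2 was not called (-0.92, adjusted p = 0.0536).

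Respiratory chain subunits stood apart from the other metabolic genes, with 5 of 66 lower, none higher and a median of -0.34. After cyclic loess 17 were lower, and without hepatocyte-like replicate 3 7 were. The ATP synthase subunit Atp5b was 12.01, 12.07 and 12.08 in adults and 12.14, 11.97 and 12.17 in hepatocyte-like cells, overlapping, with a difference of 0.04 (95% interval -0.27 to 0.35). Cox6a1 of cytochrome oxidase differed by 0.30 (95% interval -0.10 to 0.70). The lower members included 3 subunits of succinate dehydrogenase, Sdha, Sdhb and Sdhc, which also belongs to the citric acid cycle, and which fell by 1.32 ± 0.18, 1.10 ± 0.14 and 1.25 ± 0.16. Cyc1 (-1.16 ± 0.19) and Ndufa6 (-1.15 ± 0.24), the others, dropped below the minimum difference, Cyc1 without hepatocyte-like replicate 2 (-0.98) and Ndufa6 without hepatocyte-like replicate 1 or adult replicate 1 (-0.98 at the smallest).

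Bile acid genes were lower in 29 of 30 cases, with a median of -4.96 and 16 at background. Cyp7a1, the rate-limiting enzyme of bile acid synthesis, was 11.16, 10.65 and 11.04 in adults and 2.79, 2.91 and 3.14 in hepatocyte-like cells, with a difference of -8.0 ± 0.21 (adjusted p = 2.14e-11). All 3 hepatocyte-like arrays lay at the embryonic stem cell mean of 3.06 or close to it. The uptake transporters Slco1b2 and Slco1a1 fell by 8.42 ± 0.33 and 8.03 ± 0.20, and the bile salt export pump Abcb11 fell by 7.10 ± 0.22. The bile acid receptor FXR (Nr1h4) was 9.35, 9.18 and 9.18 in adults and 4.23, 4.45 and 4.14 in hepatocyte-like cells, at background. Abcc4, an exporter found in many cells, was the member not called, at 0.22 (95% interval -0.35 to 0.79).

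Drug and xenobiotic metabolism held many large differences. Of 58 P450 and reductase genes 48 were lower, 32 of them at background, with a median of -5.52. Of 41 conjugation enzymes 36 were lower (median -3.99, 19 at background), and all 42 esterases, oxidases and aldehyde enzymes were lower (median -5.33, 24 at background). Many of these genes are close copies, and probes of Cyp2c, Cyp3a, Ugt2b and Sult3a genes may not separate them.

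The P450 Cyp2e1, which oxidizes ethanol and small solvents, was 13.13, 13.20 and 13.04 in adults and 5.21, 5.33 and 6.83 in hepatocyte-like cells, a difference of -7.33 ± 0.33. Cyp1a2, which oxidizes caffeine, was 11.58, 11.75 and 11.77 in adults and 4.60, 4.95 and 4.89 in hepatocyte-like cells, with no raised value in replicate 3. Cyp2j5 fell by 8.12 ± 0.26 and Cyp2c69 by 8.22 ± 0.27. Cyp1b1, which is found mainly outside the liver, ran the other way, at 4.23, 4.81 and 4.17 in adults and 5.93, 7.08 and 7.28 in hepatocyte-like cells (2.36 ± 0.31, adjusted p = 4.85e-05), as did Cyp2s1. The electron donor Cyb5r3, expressed in most cells, was not called, at 12.05, 11.88 and 12 and 11.36, 11.84 and 12. In conjugation the glucuronosyltransferase Ugt2b1 fell by 7.83 ± 0.31 and the sulfotransferase Sult1d1 by 7.52 ± 0.17, and the enzyme that makes the UDP-glucuronic acid used by glucuronosyltransferases, Ugdh, differed by 0.06 (95% interval -0.39 to 0.51). The carboxylesterase Ces3a was 12.33, 12.40 and 12.55 in adults and 4.13, 4.12 and 4.45 in hepatocyte-like cells, a fall of 8.19 ± 0.16 (adjusted p = 1.71e-11). Paraoxonase 1 (Pon1) fell by 8.14 ± 0.35 and urate oxidase (Uox) by 7.57 ± 0.29.

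The promoter of Cyp2c69 is shown as the P450 gene with the largest difference whose promoter holds CAAAGTCCA, a binding sequence of HNF4A, here at bases -75 to -67 of chr19:39886720-39887019 on the minus strand and marked in capitals.
Cyp2c69: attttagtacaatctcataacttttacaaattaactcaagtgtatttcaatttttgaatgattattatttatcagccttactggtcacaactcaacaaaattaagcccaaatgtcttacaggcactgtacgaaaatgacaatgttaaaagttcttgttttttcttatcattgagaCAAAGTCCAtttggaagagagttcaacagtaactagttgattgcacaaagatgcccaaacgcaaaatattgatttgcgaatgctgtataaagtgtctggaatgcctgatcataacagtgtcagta

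These letters, on either strand, were in 0.453% of all 14336 promoters, 1.22% of those of lower genes, 0.368% of those of higher genes and 4.55% (9 of 198) of those of genes lower by at least 5. The 9 genes, named because they were the whole count, were Cyp3a16, Cyp3a11, Aadat, Pipox, Slc3a1, Cyp2c68, Cyp2c40, Cyp2c69 and Cyp2c70, so 6 are P450 genes of the Cyp2c and Cyp3a families, whose members are close relatives, and their promoters were not compared with each other. The palindrome TTGCGCAA of C/EBP proteins was in 0.237% of all promoters and in 0 of these 198.

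Iron, haem and copper genes were lower in 15 of 23 cases and higher in 2, with a median of -2.39. Hepcidin (Hamp), the hormone that limits iron uptake, was 13.04, 13.17 and 13.14 in adults and 5.44, 5.44 and 10.54 in hepatocyte-like cells, near background in replicates 1 and 2 and high in replicate 3. Its difference was -5.97 ± 0.99, and -7.67 without replicate 3. The related Hamp2 showed no such rise, at 2.61, 3.04 and 3.11, and fell by 6.53 ± 0.25. Ceruloplasmin (Cp), the copper-carrying oxidase, fell by 6.33 ± 0.20 and the iron sensor Tfr2 by 6.10 ± 0.26. The copper exporter Atp7a of non-hepatic cells was higher by 2.95 ± 0.18, and haem oxygenase 1 (Hmox1), induced by haem and oxidants, by 1.61 ± 0.26. The storage protein ferritin heavy chain (Fth1, -0.57) and the metallothionein Mt1 (0.21) were not called.

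The transcription factors of the hepatocyte were often lower but seldom at background. Of 38 factors 24 were lower and 3 higher, with a median of -1.84, and Onecut1 was the 1 lower factor at background. Hnf4a, the central factor, was 10.18, 10.65 and 10.44 in adults and 6.66, 7.13 and 6.12 in hepatocyte-like cells, a difference of -3.79 ± 0.24 (adjusted p = 4.81e-08), with replicate 2 highest, replicate 3 lowest and an embryonic stem cell mean of 5.99. Cebpa, which drives metabolic genes and restrains division, was 9.88, 10.41 and 10.60 in adults and 5.22, 5.39 and 5.27 in hepatocyte-like cells, level with the embryonic stem cell mean of 5.24. Prox1, needed for hepatoblast migration, was 5.5, 6.44 and 5.48 against 9.94, 9.95 and 9.65 in adults. All hepatocyte-like arrays lay below all adult arrays for these 3 factors.

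The pioneer factors Foxa2 and Foxa3, which open liver enhancers, fell by 1.53 ± 0.26 and 2.48 ± 0.19. Foxa1 was 8.18, 7.98 and 7.82 in adults and 6.38, 7.97 and 5.15 in hepatocyte-like cells, so replicate 2 lay within the adult range, and leaving out hepatocyte-like replicate 3 ended its call (-0.82, adjusted p = 0.12). Factors that rise late in liver development were also lower: Nfia fell by 2.40 ± 0.31, Nfix by 2.24 ± 0.23 and Zbtb20, a repressor of Afp, by 2.0 ± 0.22. Of the 38 factors 11 were not called, among them Cebpb, Cebpd and Zhx2. Gata4, an early endoderm factor, was also not called, at 7.55, 7.77 and 7.88 in adults and 7.39, 7.40 and 7.03 in hepatocyte-like cells. Gata6, its relative, was higher, at 7.58, 7.22 and 7.24 and 10.54, 9.68 and 8.68, lowest in replicate 3 and above the adults on every array. Meis1 and Tbx3, a factor of hepatoblast growth, were the other higher ones, by 2.25 ± 0.42 and 1.51 ± 0.29.

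Of 31 metabolic nuclear receptors 19 were lower and 3 higher (2 without hepatocyte-like replicate 3, where the vitamin D receptor Vdr went from 1.18 to 0.85), with a median of -1.19. The xenobiotic sensors PXR (Nr1i2) and CAR (Nr1i3) stood at 8.93 ± 0.17 and 9.43 ± 0.15 in adults and at 4.45 ± 0.13 and 4.98 ± 0.31 in hepatocyte-like cells (SD, n = 3 each). Ppara, the receptor that turns on fatty acid oxidation, was 9.37, 10 and 9.93 in adults and 5.27, 4.66 and 5.03 in hepatocyte-like cells. Ppard, its widely expressed relative, was higher by 1.43 ± 0.26. The aryl hydrocarbon receptor Ahr was not called (-0.97, adjusted p = 0.0212).

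In the growth hormone axis 9 of 21 genes were lower and 4 higher, with a median of -0.82. Insulin-like growth factor 1 (Igf1), the hormone the adult liver secretes in response to growth hormone, was 11, 10.61 and 10.70 in adults and 5.29, 5.12 and 5.34 in hepatocyte-like cells, with a difference of -5.52 ± 0.18. The growth hormone receptor (Ghr) fell by 3.45 ± 0.25 and the glucagon receptor (Gcgr) by 4.14 ± 0.17. Its counterpart was the IGF receptor Igf1r, nearly absent from mature hepatocytes, at 5.24, 5.37 and 5.04 in adults and 8.66, 8.70 and 8.82 in hepatocyte-like cells. Egfr was not called and overlapped, at 10.56, 10.43 and 10.22 and 9.55, 10.40 and 8.79.

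Markers of both zones of the liver lobule were lower, 15 of 17 for the periportal zone (median -5.22) and 16 of 19 for the pericentral zone (median -3.46). The periportal Cyp2f2 was 12.02, 11.88 and 11.97 in adults and 4.42, 4.65 and 5.34 in hepatocyte-like cells, and the pericentral Rgn was 12.35, 11.88 and 12.20 and 5.37, 4.50 and 5.61. Lgr5, a Wnt receptor of the cells next to the central vein, varied among the adult arrays, at 7.88, 5.85 and 6.20, and was 4.51, 4.65 and 4.39 in hepatocyte-like cells. The uncalled Axin2, a general Wnt target, differed by 0.65 (adjusted p = 0.0346).

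Many enzymes exist as an adult liver form and a form used by fetal liver or other tissues. For 15 pairs, a member was set as the adult form and its partner as the other form. This assignment was not tested, and some pairs, such as Mthfd1 and Mthfd2 below, differ by cell compartment. Of the adult forms 12 were lower and none higher (median -5.11), and of the other forms 10 were higher and 2 lower (median 2.0). In 7 of 15 pairs the adult form was lower and the other form higher. For pyruvate kinase, the liver form Pklr was 10.05, 10.45 and 10.55 in adults and 5.20, 5.31 and 5.05 in hepatocyte-like cells. The embryonic form Pkm was 6.89, 7.31 and 7.50 in adults and 12.29, 11.70 and 11.83 in hepatocyte-like cells, so neither form overlapped between the groups and the differences were -5.16 ± 0.19 and 4.71 ± 0.20. The glucose transporter of most growing cells, Slc2a1, was 8.05, 8.05 and 7.88 in adults and 12, 11.85 and 12.70 in hepatocyte-like cells, where Slc2a2 had fallen.

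Glycogen synthase gave -5.11 ± 0.16 for the liver form Gys2 and 2.46 ± 0.30 for the muscle form Gys1, and glycogen phosphorylase -5.12 ± 0.26 for Pygl and 2.90 ± 0.21 for the brain form Pygb. In folate metabolism the cytosolic Mthfd1 fell by 2.16 ± 0.18 while the mitochondrial Mthfd2, usual in embryonic and dividing cells, was higher by 3.27 ± 0.24. The remaining pairs with opposite calls, Fabp1 with Fabp5 and Aldh1a1 with Aldh1a2, rest on hepatocyte-like replicate 3: without it the higher calls of Fabp5 (adjusted p = 0.1) and Aldh1a2 (adjusted p = 0.13) were lost. The arginase Arg2, the phosphatase Fbp2 and Aldh1l2 were not called, and for acetyl-CoA carboxylase and serine hydroxymethyltransferase both forms were lower.

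**Figure D4:**
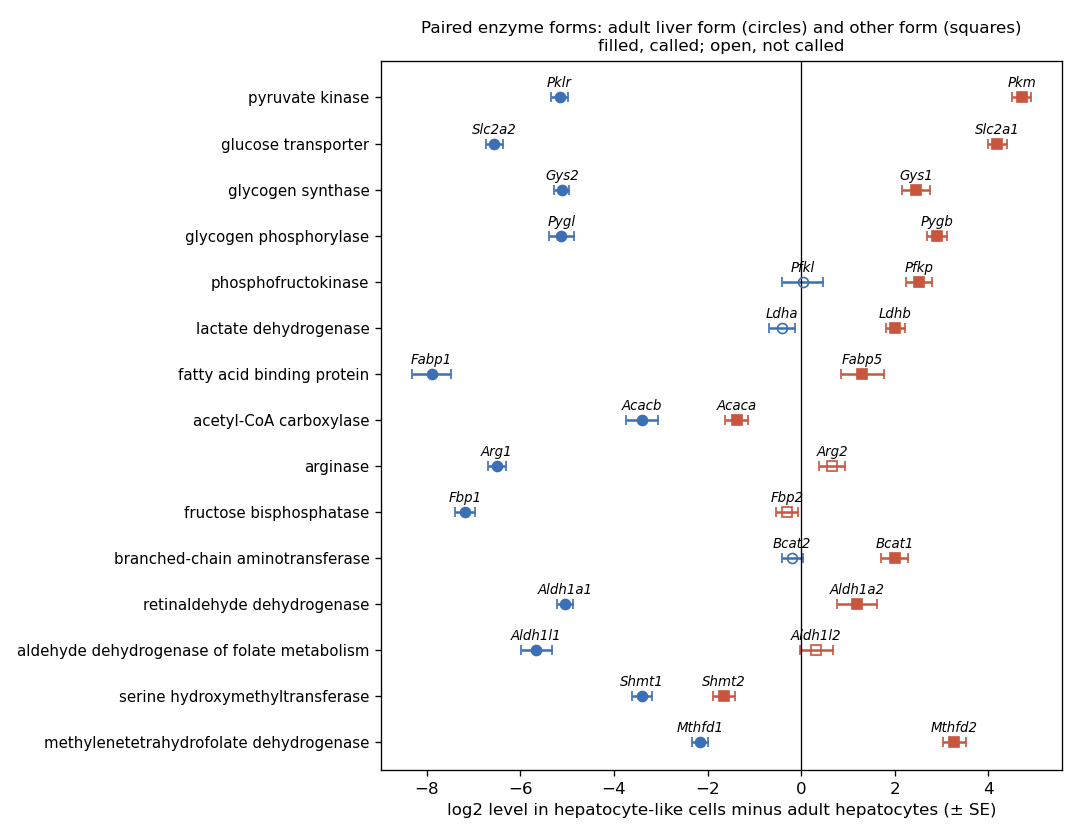
Difference, hepatocyte-like minus adult (log2, bars show the standard error of the fit), for the adult form (circles) and the other form (squares) of 15 enzymes or transporters, with open symbols for genes not called. The adult forms lie to the left for 12 of 15 and the other forms to the right for 10 of 15, with Pklr at -5.16 and Pkm at 4.71.

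Among the programmes in excess, fetal and oncofetal genes were higher in 25 of 26 cases, with a median difference of 3.99. Of these, 13 were at background in adults. This list, too, was written with earlier results known, and Nrk and Cd24a are also among the 12 largest higher calls. Nrk, a kinase of the placenta and fetal tissues, was 3.84, 3.75 and 4.11 in adults and 10.73, 11.07 and 10.96 in hepatocyte-like cells, a difference of 7.02 ± 0.23 (adjusted p = 8.4e-11). Its embryonic stem cell mean was 4.0, so it was at background in both the adult and the stem cell arrays. The imprinted gene Mest was 6.18, 5.75 and 6.03 in adults and 11.96, 11.18 and 11.48 in hepatocyte-like cells, and the zinc finger gene Plagl1 was 4.63, 4.77 and 5.19 and 11.84, 11.13 and 8.49, lowest in replicate 3. Igf2, Dlk1 and Gpc3, textbook genes of the fetal liver that were picked here after their values were seen, were higher by 4.74 ± 0.25, 2.58 ± 0.34 and 4.71 ± 0.29. The surface protein Cd24a was higher by 5.91 ± 0.37 and the epithelial adhesion protein Epcam by 4.40 ± 0.25. Lin28b, which blocks let-7 maturation, was not called (0.73, adjusted p = 0.0713).

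**Figure D5:**
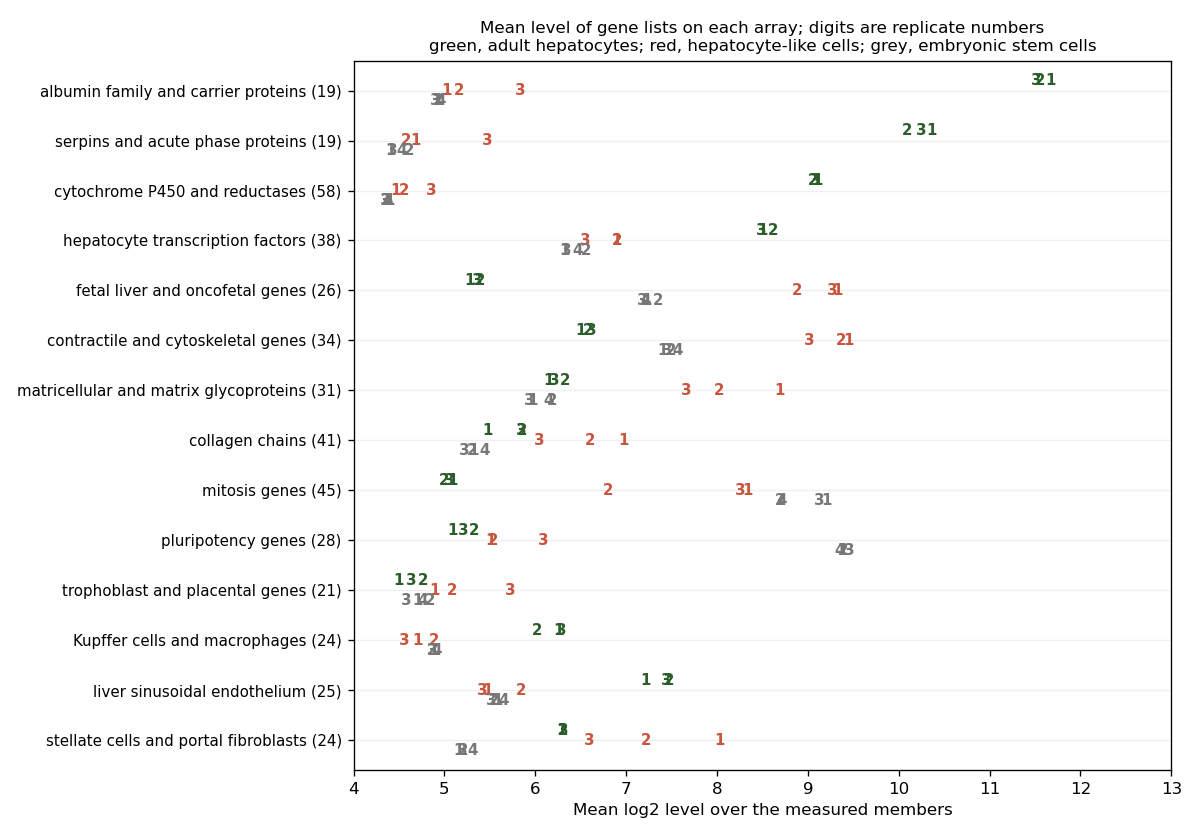
Mean level (log2) of 14 gene lists on each of the 10 arrays, with the replicate number as the symbol and colour for the group. The plasma protein and metabolic lists of hepatocyte-like cells lie near the embryonic stem cells, replicate 3 (5.83) stands above replicates 1 and 2 in the carrier list, replicate 2 (6.80) stands below the others in the mitosis list, and the collagen list is at 6.97 in replicate 1 and 6.04 in replicate 3.

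Extracellular matrix genes were higher in part. Of 41 collagen chains 11 were higher and 1 lower, with a median of 0.09, and without hepatocyte-like replicate 3, 13 were higher. The mean level of the list was 6.97, 6.60 and 6.04 in hepatocyte-like replicates 1, 2 and 3 and 5.48 to 5.86 in adults. Fibrillar type I collagen (Col1a1) was 5.91, 6.24 and 6.31 in adults and 12.80, 11.92 and 9.80 in hepatocyte-like cells, above the adults on every array and lowest in replicate 3. The basement membrane chains Col4a1 and Col4a2 were higher by 3.96 ± 0.28 and 3.56 ± 0.29. Col18a1, the source of endostatin and strongly expressed by hepatocytes, fell by 2.12 ± 0.32.

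The enzymes that finish collagen were higher in 14 of 22 cases (median 2.06). Plod2, which prepares collagen for crosslinking, was 3.78, 3.84 and 3.96 in adults and 10.96, 10.26 and 9.94 in hepatocyte-like cells, and the collagen chaperone Serpinh1 was higher by 4.41 ± 0.40. Of 31 matricellular proteins and glycoproteins 18 were higher and 2 lower (median 1.93), and 20 and 2 without hepatocyte-like replicate 3. Thrombospondin 1 (Thbs1) was 4.93, 4.95 and 4.50 in adults and 11.59, 11.26 and 9.95 in hepatocyte-like cells, versican (Vcan) was 4.53, 5.44 and 4.77 and 10.79, 9.95 and 9.47, and both were lowest in replicate 3. The plasma glycoprotein vitronectin (Vtn), a hepatocyte product, was the largest fall of the list, at -7.12 ± 0.22. Fibronectin (Fn1), which both hepatocytes and mesenchymal cells make, was 12.43, 12.56 and 12.48 in adults and 12.73, 12.92 and 12.45 in hepatocyte-like cells and was not called (0.21, 95% interval -0.23 to 0.65).

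Of 27 laminins and integrins 17 were higher and 1 lower (median 1.72), led by the laminin chain Lamb1 at 5.54, 5.81 and 6.10 in adults and 10.72, 10.74 and 10.54 in hepatocyte-like cells. The laminin-binding integrins Itga6 and Itga3 were higher by 4.02 ± 0.34 and 3.83 ± 0.33, whereas Itga1, the integrin of the normal hepatocyte, fell by 2.12 ± 0.43. Of 24 matrix proteases and inhibitors 18 were higher and 1 lower (median 1.82). Gelatinase A (Mmp2) was 4.98, 5.73 and 4.78 in adults and 11.17, 10.90 and 10.46 in hepatocyte-like cells, and its family's inhibitor Timp1 was higher by 4.84 ± 0.30.

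Contractile and cytoskeletal genes were higher in 30 of 34 cases and lower in 1, with a median of 2.65. Smooth muscle actin (Acta2) was 6.45, 6.32 and 6.49 in adults and 12.54, 12.57 and 11.44 in hepatocyte-like cells, a difference of 5.76 ± 0.26 (adjusted p = 1.44e-09), and all hepatocyte-like arrays lay more than 4 units above the adults and the embryonic stem cell mean of 5.86. The intermediate filament vimentin (Vim), a mesenchymal marker that stem cells also express, was 7.39, 7.79 and 7.74 in adults and 12.64, 12.71 and 12.36 in hepatocyte-like cells. Calponin 2 (Cnn2) and filamin A (Flna), which bind and crosslink actin, were higher by 5.59 ± 0.20 and 4.69 ± 0.24. Myosin light chain kinase (Mylk) fell by 2.75 ± 0.20, and smooth muscle myosin (Myh11), the marker of fully formed smooth muscle, was not called, at 5.70, 5.49 and 5.47 and 6.0, 5.71 and 5.39.

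The Cnn2 promoter is shown because it holds a CArG box, the site of serum response factor, at bases -56 to -47 of chr10:79988350-79988649 on the plus strand, in capitals.
Cnn2: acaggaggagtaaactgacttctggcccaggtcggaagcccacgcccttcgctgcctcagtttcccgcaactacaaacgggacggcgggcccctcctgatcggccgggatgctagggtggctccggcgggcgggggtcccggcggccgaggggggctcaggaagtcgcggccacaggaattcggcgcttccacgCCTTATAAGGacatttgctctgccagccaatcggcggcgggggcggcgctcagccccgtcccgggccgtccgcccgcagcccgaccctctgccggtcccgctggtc

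On either strand, a CArG box was found in 3 of 24 promoters of contractile genes (12.5%), 1.68% of those of higher genes and 1.48% of all promoters. The TEAD letters GGAATG were in 10 of 24 contractile promoters (41.7%), in 7 of 17 coagulation promoters (41.2%), in 13.3% of those of all higher genes and in 13.4% of all promoters. AP-1's TGAGTCA was in 2.89% of promoters of higher genes and 4.66% of all. Among genes higher by at least 3, a CArG box was in 2.5% of promoters, GGAATG in 16.7% and TGAGTCA in 5.83% (14 of 240). Among genes lower by at least 5 these shares were 1.52%, 16.7% and 6.57%.

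Targets of YAP and TEAD, the effectors of the Hippo pathway that respond to stretched actin, were higher in 17 of 22 cases and lower in none, with a median of 2.62. Connective tissue growth factor (Ccn2) was 5.98, 5.68 and 6.47 in adults and 9.75, 10.68 and 9.91 in hepatocyte-like cells, without overlap. The membrane repair protein Myof, the ligand Tgfb2 and the phosphatase Ptpn14 were higher by 4.93 ± 0.28, 4.36 ± 0.23 and 4.35 ± 0.19. The TEAD factors Tead1 and Tead2 were themselves higher, by 2.66 ± 0.22 and 3.46 ± 0.28. Lats2, a kinase that restrains YAP and is also its target, differed by 0.82, under the minimum of 1. Yap1 itself (0.61) and the serum response factor Srf (0.92), looked up after the lists, were not called.

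Of 33 mesenchymal transcription factors 17 were higher and none lower, with a median of 1.05 (19 without hepatocyte-like replicate 3). Sox4 was 4.69, 4.30 and 4.20 in adults and 9.16, 9.87 and 9.60 in hepatocyte-like cells, and Runx1 was higher by 2.72 ± 0.22. Sox9, which also marks bile duct and progenitor cells, was 6.78, 6.83 and 6.33 in adults and 9.21, 8.75 and 6.59 in hepatocyte-like cells, with replicate 3 inside the adult range. Its difference was 1.54 ± 0.50, and 2.33 without replicate 3. Snai2, a repressor of epithelial genes, was not called at a level of 9.13 in adults and 10.02 in hepatocyte-like cells. Of 36 Hox genes 6 were higher, of which Hoxc8 differed by 1.35 ± 0.23, and the list's median was 0.17.

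Epithelial genes were higher at the same time. Of 17 simple epithelial and cholangiocyte genes 10 were higher and 1 lower (median 1.54), and 9 and 2 without hepatocyte-like replicate 3. Keratin 19 (Krt19), of bile ducts and hepatoblasts, was 5.26, 5.43 and 5.13 in adults and 8.74, 10 and 8.68 in hepatocyte-like cells. The tight junction protein Cldn6 was 4.53, 4.92 and 5.12 and 8.95, 9.98 and 10.04, well above its stem cell mean of 5.72. The bile duct water channel Aqp1 fell by 3.46 ± 0.18 and the duct hormone receptor Sctr was not called, at 5.08, 4.87 and 5.24 and 5.35, 5.18 and 4.70. E-cadherin (Cdh1) was 9.20, 9.26 and 9.14 in adults and 9.61, 11.35 and 10.58 in hepatocyte-like cells, a higher call (1.31 ± 0.33) that was lost after cyclic loess, with the mean over probe sets and without hepatocyte-like replicate 2.

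Of 26 annexins and S100 proteins 9 were higher and 1 lower (8 and 0 without hepatocyte-like replicate 3), with a median of 0.29, and 7 were at background in both groups. The members that were higher had some of the largest differences of the comparison. Annexin A2 (Anxa2), which links membranes to actin, was 5.83, 5.71 and 5.47 in adults and 11.18, 11.41 and 11.15 in hepatocyte-like cells, and Anxa1, Anxa3 and S100a6 were higher by 6.37 ± 0.35, 5.35 ± 0.39 and 6.29 ± 0.40. Annexins A4 and A7 (Anxa4, Anxa7) were not called, at differences of -0.03 and 0.39.

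Cell division genes were higher nearly throughout, 43 of 45 mitosis genes (median 2.89, 27 at background in adults) and 27 of 35 replication genes (median 1.51, 24 without hepatocyte-like replicate 3). The mean level of the mitosis list was 5.09, 5.0 and 5.05 in adults, 8.34, 6.80 and 8.25 in hepatocyte-like replicates 1 to 3 and 8.69 to 9.21 among the embryonic stem cell arrays, so replicate 2 was the lowest of the hepatocyte-like arrays but far above the adults. The proliferation antigen Mki67 was 6.18, 5.15 and 4.99 in adults and 10.15, 8.02 and 9.78 in hepatocyte-like cells, and topoisomerase II alpha (Top2a), which untangles chromosomes, was 4.75, 4.68 and 4.93 and 10.10, 8.21 and 9.46. Ribonucleotide reductase (Rrm2), which supplies the bases of DNA, was higher by 2.71 ± 0.35. Thymidine kinase (Tk1) was called lower at -1.24 ± 0.27, a call lost without hepatocyte-like replicate 2 (-0.96). The kinetochore gene Spc24 was not called (-0.07, 95% interval -0.59 to 0.45).

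Of 28 DNA methylation and Polycomb genes 13 were higher and none lower, with a median of 0.94. The histone methyltransferase Ezh2 was 6.47, 6.15 and 6.25 in adults and 8.87, 8.58 and 8.97 in hepatocyte-like cells, and the maintenance methyltransferase Dnmt1 was higher by 2.23 ± 0.24. Of 28 ribosome biogenesis and Myc genes 14 were higher (8 after cyclic loess) with a median of 1.0. Nucleophosmin (Npm1) was 9.05, 7.83 and 7.89 in adults and 11.39, 11.23 and 10.89 in hepatocyte-like cells, with adult replicate 1 above the other adults in several genes of this list, such as Nop58 at 8.28, 7.0 and 6.12.

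In TGF-beta, BMP and Wnt signalling 19 of 48 genes were higher and 2 lower, with a median of 0.70 (21 and 2 without hepatocyte-like replicate 3). Among the ligands, Tgfb1 was 6.86, 7.0 and 6.96 in adults and 10.30, 9.57 and 9.24 in hepatocyte-like cells, and Bmp4, the mesodermal signal that helps specify liver, was higher by 3.31 ± 0.40. The Wnt inhibitor Dkk1 was 4.97, 5.26 and 5.40 in adults and 9.37, 7.02 and 9.52 in hepatocyte-like cells, whereas Notum, which inactivates Wnt proteins near the central vein, fell by 1.87 ± 0.36. The BMP target Id3 was not called (-0.07), and Id2 fell by 1.27 ± 0.25.

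The prostaglandin and inflammatory list was mixed, with 9 of 26 higher, 5 lower and a median of 0.01 (7 higher without hepatocyte-like replicate 3). Cyclooxygenase 2 (Ptgs2), which starts prostaglandin synthesis, was 4.08, 4.20 and 4.15 in adults and 10.54, 11.25 and 11.91 in hepatocyte-like cells, a difference of 7.09 ± 0.28 (adjusted p = 4.52e-10). The phospholipase that releases its substrate (Pla2g4a) and the synthase that follows it (Ptges) were higher by 3.20 ± 0.20 and 2.04 ± 0.45, and the enzyme that inactivates prostaglandins, Hpgd, fell from 10.77, 10.59 and 10.81 to 6.34, 6.14 and 7.05. The receptor of oncostatin M (Osmr), a cytokine that matures fetal hepatocytes, was higher by 1.87 ± 0.19, while Lifr fell by 2.66 ± 0.30 and their shared subunit Il6st differed by -0.63, under the minimum.

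Targets of p53 were higher in 16 of 23 cases and lower in none, with a median of 2.28 (1 was lower without hepatocyte-like replicate 3). The cell cycle inhibitor Cdkn1a was 6.91, 5.57 and 6.49 in adults and 11.89, 12.20 and 11.44 in hepatocyte-like cells, and the embryonic stem cell mean was 11.28. The death receptor Tnfrsf10b was 4.34, 4.07 and 4.47 in adults and 9.84, 10.49 and 10.25 in hepatocyte-like cells. The mean level of the list was 6.92, 6.93 and 6.99 in adults, 8.76, 9.37 and 9.07 on the hepatocyte-like arrays and 8.29 to 8.41 on the embryonic stem cell arrays.

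Genes of the starting cells, trophoblast, nerve, muscle and other endoderm were mostly not called. Of 28 pluripotency genes 6 were higher and 1 lower, with a median of 0.23. The core factors Pou5f1, Sox2 and Zfp42 were not called, and Zfp42 was 4.90, 4.74 and 5.26 in hepatocyte-like cells, 5.01, 4.63 and 4.51 in adults and 10.91 on average in embryonic stem cells. Nanog was 5.08, 5.09 and 7.12 in hepatocyte-like cells against an embryonic stem cell mean of 12.20, above the adult values in replicate 3 alone. Klf5 was called higher than in adults by 4.10 ± 0.16 and Sall4 by 2.05 ± 0.39. The mean of the list was 5.51, 5.54 and 6.09 in hepatocyte-like replicates 1 to 3 and 5.09 to 5.33 in adults.

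Extraembryonic endoderm, a tissue of the yolk sac that shares Afp, Ttr and Apoa1 with the liver, had 12 of 24 genes higher and 5 lower (10 higher without hepatocyte-like replicate 3). The higher ones included Lama1 (3.46 ± 0.33), Sparc (2.90 ± 0.19) and Gata6, and the uncalled ones Cited1 (0.39) and the parathyroid hormone receptor Pth1r (0.23). The part of such cells in the Afp and Ttr signal was not tested. Of 21 trophoblast and placental genes 4 were higher, and the list mean was 4.89, 5.09 and 5.72 in hepatocyte-like replicates 1 to 3. Hand1 was 7.02, 7.57 and 9.64 and Plac1 was 5.75, 5.72 and 8.63, each highest in replicate 3. Of 23 neural genes 6 were higher, led by the adhesion molecule Ncam1 at 5.12, 5.17 and 5.41 in adults and 10.15, 10.26 and 9.20 in hepatocyte-like cells, a molecule also made by activated liver mesenchyme. Of 24 cardiac and skeletal muscle genes 4 were called higher, and each of these calls was lost under some other setting. For Actc1 the hepatocyte-like values were 7.44, 5.98 and 3.95, with replicate 3 inside the adult range. Of 20 gut, pancreas and lung endoderm genes 1 was higher and 2 lower.

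Markers of the other liver cells moved with the comparison. Of 24 Kupffer cell and macrophage genes 18 were lower and none higher, and the list mean was 6.26, 6.02 and 6.28 in adults and 4.70, 4.89 and 4.56 in hepatocyte-like cells. Clec4f, found in Kupffer cells alone, was 7.35, 6.90 and 6.89 in adults and 4.89, 4.86 and 4.68 in hepatocyte-like cells, at background. Of 25 sinusoidal endothelial genes 16 were lower and 1 higher, with list means of 7.21 to 7.47 in adults and 5.42 to 5.84 in hepatocyte-like cells, and the scavenger receptor Stab2 was 7.28, 8.19 and 7.70 and 4.13, 4.29 and 4.07. Signal of both cell types was thus present on the adult arrays, and its part in the lower calls was not tested.

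For stellate cells and portal fibroblasts the list split, with 9 of 24 higher and 5 lower (11 and 5 without hepatocyte-like replicate 3), and its mean was 6.29 to 6.31 in adults and 8.03, 7.22 and 6.59 in hepatocyte-like replicates 1 to 3. The markers of the quiescent, vitamin A-storing stellate cell, Lrat and Reln, fell by 3.56 ± 0.22 and 2.34 ± 0.24, while genes of activated stellate cells and other fibroblasts, Acta2, Col1a1 and periostin (Postn, 5.89 ± 0.41), were higher. The stellate cell filament desmin (Des) was higher by 2.16 ± 0.28, the fibroblast proteoglycan decorin (Dcn) fell by 1.90 ± 0.45, and the fibroblast genes Lum (0.88), Thy1 (0.55) and elastin (Eln, -0.05) were not called, although Lum was called higher without hepatocyte-like replicate 3 (1.45, adjusted p = 0.00919). Pdgfrb was not called, at 6.47, 6.82 and 6.71 in adults and 9.34, 6.95 and 7.68 in hepatocyte-like cells. Whether the matrix and contractile genes came from all cells of the culture or from a share of mesenchymal cells cannot be told apart in these bulk arrays. None of 22 lymphocyte and granulocyte genes and none of 9 erythroid genes was called in this limma fit, where 6 and 1 had an unadjusted p under 0.05, and 15 and 5 of them were at background in both groups.

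Ligands and antigen-presenting genes that lymphocytes read differed in both directions. Of 9 listed NKG2D ligands, 3 were measured on probe sets with 1 symbol, and Raet1a, Raet1b, Raet1c, Raet1d, Raet1e and H60a were not. H60b and Ulbp1 were higher and H60c was at background in both groups. H60b was 4.48, 3.48 and 4.05 in adults and 8.05, 5.12 and 7.54 in hepatocyte-like cells, lowest in replicate 2, and Ulbp1 was 4.89, 4.26 and 4.42 and 6.07, 6.90 and 7.19. Of 17 other activating and adhesion ligands 6 were higher and 3 lower (median -0.09), and 5 and 2 without hepatocyte-like replicate 3. The DNAM-1 ligand Pvr was 6.47, 6.55 and 6.13 in adults and 8.60, 8.80 and 9.75 in hepatocyte-like cells, and the costimulator Tnfsf9 was higher by 2.69 ± 0.17. Clec2d, the ligand of an inhibitory natural killer receptor, was 11.07, 11.51 and 11.50 in adults and 4.29, 4.88 and 5.34 in hepatocyte-like cells. It was listed both here and among the inhibitory ligands, so the lower counts of both lists include it. Of 20 inhibitory and checkpoint ligands 6 were higher and 4 lower (median 0.03), with Cd276 higher by 2.73 ± 0.20 and galectin 1 (Lgals1) by 5.63 ± 0.50.

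MHC class I presentation genes were lower in 12 of 24 cases and higher in none (median -1.18), and without hepatocyte-like replicate 3 in 14 and 1. The lipid-presenting Cd1d1 was 8.58, 8.78 and 8.71 in adults and 4.39, 4.62 and 3.66 in hepatocyte-like cells, and the peptide transporter subunit Tap2 fell by 2.16 ± 0.31, while the chaperone Calr was not called (-0.10, 95% interval -0.45 to 0.26). Of 32 interferon-stimulated genes 14 were lower and 2 higher (median -0.88), and without replicate 3 15 were lower and none higher. The immunity-related GTPase Iigp1 was 10.85, 9.30 and 9.97 in adults and 4.52, 3.52 and 4.28 in hepatocyte-like cells. The endothelial and Kupffer cell signal of the adult arrays moved with these genes, and its part was not tested. In the cell death list 5 of 21 genes were higher and 3 lower (median 0.05, and 6 and 4 without replicate 3), among them the granzyme B inhibitor Serpinb9 at 6.22, 5.78 and 6.13 in adults and 6.75, 7.51 and 8.36 in hepatocyte-like cells, and the caspase-8 inhibitor Cflar, which fell by 2.12 ± 0.21.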

How the data were processed

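RNA of 3 hepatocyte-like, 3 adult hepatocyte and 4 embryonic stem cell samples was measured on Affymetrix arrays. The authors deposited log2 values per transcript cluster; these came, per the submitters' processing notes, from work with oligo 1.38.0 and R 3.3.1, RMA and the Transcriptome Analysis Console, in roles that are not stated, and the log2 scale was read from the range of the values, 1.27 to 13.58. RMA scales arrays to a common distribution and compresses folds near background. Array medians were 4.91 to 5.07. Of 41345 clusters, 23521 carried exactly 1 symbol, 1814 several and 16010 none, by the platform annotation. Entrez identifiers matched for 23328 of the clusters with 1 symbol and changed no symbol. Where a gene had several clusters (1082 genes), the brightest on average over the 10 arrays stood for it.

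All 10 arrays were fitted together with 1 mean per group in limma 3.58.1 (R 4.3.3), and the 22180 genes were tested 2-sided and adjusted by Benjamini-Hochberg. The fit had 7 residual and 5.34 prior degrees of freedom. On simulated data with this design, 75% of shifts of 1.5 and 100% of shifts of 3 were called, with 3 false calls. The simulation drew genes independently, with the same spread in every group, and shifted 100 genes by each amount. The real data hold many more called genes and an array that stands apart from its group, so these rates need not hold there. Tables and figures used Python 3.11.15, pandas 2.3.3 and matplotlib 3.10.9. The members and lists were chosen with earlier results of these data known, and no list was tested as a set.

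The genes named were the 12 largest calls each way without overlap, clone and model names left out; up to 5 called members of each list, up to 3 called the other way and up to 3 not called; the isozyme pairs, liver transcription factors, NKG2D ligands and cell type markers. Igf2, Dlk1, Gpc3, Yap1, Srf, Lum, Thy1 and Eln and the genes of the closing observations were chosen after their values were seen. Promoters came from RefSeq, matched by symbol. Alternatives were other normalizations, cluster rules, variance priors, array weights, thresholds, background levels, arrays in the fit, a replicate block and leaving out each array.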

Additional observations from a re-analysis of the deposited data

How the results depend on the processing

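The counts of 3083 higher and 2023 lower genes stayed within 1.5 times under every normalization, cluster rule, variance prior, weighting and set of arrays tried. Leaving out 1 array at a time gave 2896 to 3248 higher and 2006 to 2070 lower genes. With no minimum difference there were 4762 and 3241, and at adjusted p under 0.01 with a difference of at least 2 there were 1011 and 1083. Of the 5106 called genes, 3727 kept their call under every alternative of the list other than the thresholds, and 436 lost it without hepatocyte-like replicate 3. Cyclic loess removed 801 higher and 38 lower calls, and moved 3 list counts of at least 5 beyond 1.5 times, those given in the report; why was not tested. The 573 lower genes at background became 885 with a background of 5.5 in all groups, 1086 with the 99th percentile and 558 without hepatocyte-like replicate 3; the 815 higher genes at adult background became 1576 with the 99th percentile and 783 without that replicate. These counts follow the level chosen. Of 504 named genes 350 were called, 24 lost the call under at least 1 alternative and no called difference reversed. Pairing by replicate number was not seen: deviations of same-numbered arrays correlated at -0.13, 0.043 and -0.185. Differently numbered arrays gave -0.125 to 0.228. With 3 arrays a group this check cannot exclude a shared batch. With the replicate block 3053 genes were higher and 2022 lower. Signal near background limits every fold of a gene at or near that level.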

Other observations

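The genes in these paragraphs were chosen after their values were seen. Xist, the RNA that silences an X chromosome in female cells, was 10.17, 10.38 and 10.06 in adult hepatocytes and 4.20, 3.75 and 3.90 in hepatocyte-like cells, a difference of -6.25 ± 0.18 (adjusted p = 4.21e-11, limma). The embryonic stem cell mean was 4.41. The Y-linked genes Eif2s3y (3.44 and 3.36), Kdm5d (2.95 and 2.91) and Uty (3.57 and 3.32) were at background in both groups. Of 905 genes tested on the X chromosome 15.9% were higher and 3.87% lower in hepatocyte-like cells, against 13.8% and 9.37% of 21204 autosomal genes. The median difference was -0.01 on the X chromosome and -0.04 on the autosomes. With genes at background in both groups left out, it was 0.43 on the X chromosome (457 genes) and 0.15 on the autosomes (13958 genes). The labels give no sex, and the part of X dosage in any result was not tested.

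Genes known for sex-biased expression in mouse liver were unevenly present in the adult arrays. The female-predominant Cyp2b9, Cyp2b13 and Cyp3a44, all P450 genes, had adult means of 12.44, 11.44 and 11.19, and the plasma protein gene A1bg had 12.79. All of them were lower in hepatocyte-like cells, as were Cyp2a4, Cyp3a16, Sult3a1, Sult3a2, Hao2 and Cux2. Of 9 male-predominant genes 6 were at adult background, namely Cyp4a12a, Cyp2d9, Ugt2b38, Hsd3b5, Cyp4a12b and Mup21, at means of 3.93, 3.60, 2.85, 5.09, 5.14 and 4.11. The others were Slco1a1 at 11.34, Elovl3 at 7.66 and Mup20 at 6.36. The P450 list holds several of these genes, and their part in the P450 counts was not tested.

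The largest positive difference among the genes the naming rule allows was that of Bex3, an X-linked adaptor of neurotrophin signalling. It was 5.11, 4.63 and 4.42 in adults and 11.60, 12.05 and 11.99 in hepatocyte-like cells (7.16 ± 0.22, adjusted p = 5.09e-11, limma). The imprinted noncoding RNA Rian was 4.19, 3.85 and 3.46 in adults and 10.52, 9.85 and 9.79 in hepatocyte-like cells. Both were also high in embryonic stem cells, with means of 10.93 for Bex3 and 8.69 for Rian. The keratins Krt8 and Krt18, the filaments of hepatocytes themselves, were higher than in adults by 1.73 ± 0.32 and 1.37 ± 0.36, and without hepatocyte-like replicate 3 Krt18 went to 0.94, below the minimum of 1.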
